A study of Mus musculus with 8 samples.

Results

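The genes described here are 9 transporters that carry amino acids across the membrane of T cells, namely Slc7a5, Slc3a2, Slc1a5, Slc1a4, Slc38a1, Slc38a2, Slc7a1, Slc7a6 and Slc7a11. They were taken by name, as probe sets whose platform annotation gives a single symbol equal to one of these genes. All 9 had a probe set, 12 probe sets together, among 12393 genes so measured. A filter on low values, a mean of at least 6.87 on the log2 scale, left 8003 genes to test, of which 7 were transporters. Slc7a1 and Slc7a11 fell below it, with means of 6.18 and 5.96.

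RNA came from activated CD8 T cells of OT-1 mice, which carry a transgenic receptor for an ovalbumin peptide, and was measured on 8 expression arrays. T cells of 4 mice, A to D, met PD-L1-overexpressing targets on 4 arrays and PD-L1-depleted targets on the other 4, so that each mouse gave a pair. The targets in both groups were ID8 cells, a mouse ovarian cancer line, bearing the ovalbumin peptide, and contact lasted 4 h at 30 T cells per target cell before the T cells were collected magnetically. PD-L1 binds PD-1, an inhibitory receptor of T cells. The age and strain background of the mice, and whether each altered ID8 line was a single clone, are not given in the sources used here.

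Activated T cells take up far more amino acid than resting ones, to make protein and to keep the growth kinase mTORC1 active. Slc7a5 encodes the light chain LAT1, which brings in leucine and other large neutral amino acids, and it reaches the surface only when bound to the heavy chain CD98, the product of Slc3a2. Slc7a6 (y+LAT2) and Slc7a11 (xCT, which imports cystine in exchange for glutamate) use the same heavy chain. Slc1a5 (ASCT2) exchanges glutamine and other neutral amino acids, its relative Slc1a4 (ASCT1) serine, alanine and cysteine, Slc38a1 and Slc38a2 are sodium-coupled glutamine and alanine importers, and Slc7a1 (CAT1) imports arginine and lysine.

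Values are on the log2 scale, as deposited, and only differences within a probe set are read, since the brightness of different probe sets cannot be compared. Over the tested genes, mice accounted for 74.6% of the variance and targets for 4.97%. Of 11 CD8 T cell markers with a probe set, 11 passed the filter, and their mean lay between 12.29 and 12.34 with PD-L1-overexpressing and between 12.27 and 12.35 with PD-L1-depleted targets. Of the markers of other cells, 7 of 8 for B cells, 6 of 8 for macrophages and dendritic cells and 3 of 5 for erythroid cells and platelets lay below the filter. Of 25 tumour and mesothelial markers 12 passed, against 64.6% of all genes, and 13, among them Wt1 and Krt7, lay below the filter. In such bulk samples, fewer cells of a type and less RNA per cell cannot be told apart.

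Between targets, no transporter gene passed the test over all 4 mice. Slc7a5 read 11.73, 11.30, 11.02 and 11.21 in mice A, B, C and D facing PD-L1-overexpressing targets, against 11.57, 11.38, 11.16 and 11.13 with PD-L1-depleted targets. The difference ran up in mice A and D and down in B and C, and averaged 0.0049 (SE 0.047). Its 95% interval, from -0.10 to 0.11, corresponds to between 0.933 and 1.08 times the level with PD-L1-depleted targets.

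Slc3a2, the heavy chain, read 12.90, 12.62, 12.52 and 12.72 for mice A to D on PD-L1-overexpressing targets, against 12.83, 12.63, 12.58 and 12.72 with PD-L1-depleted targets. It differed by 0.0033 (SE 0.025), with an interval from -0.053 to 0.060. Both groups covered nearly the same range, and the animals kept their places within it.

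The glutamine exchanger Slc1a5 read 12.32, 12.23, 12.09 and 12.23 with PD-L1-overexpressing targets, against 12.33, 12.23, 12.18 and 12.23 with PD-L1-depleted targets. Its difference of -0.027 (SE 0.024) came mostly from mouse C, at -0.087. Slc1a4 read 8.80, 8.51, 8.30 and 8.58, against 8.70, 8.32, 8.39 and 8.66, and differed by 0.029 (SE 0.057). For both genes the ranges of the groups overlapped.

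The sodium-coupled importer Slc38a1 read 10.26, 10.23, 10.20 and 10.23 with PD-L1-overexpressing targets, against 10.37, 10.16, 10.20 and 10.19 with PD-L1-depleted targets, and differed by -0.0011 (SE 0.038). Slc7a6 read 9.51, 9.44, 9.39 and 9.47, against 9.52, 9.50, 9.45 and 9.50, and differed by -0.038 (SE 0.035). Slc7a6 was lower with PD-L1-overexpressing targets in 4 of 4 mice, by 0.010 to 0.060, but a second Slc7a6 probe set was higher in mouse B by 0.12.

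None of the 7 tested members passed (limma with the mouse as a block, Benjamini-Hochberg adjusted p = 0.9995 for each), and 0 had an unadjusted p under 0.05. Over all 8003 genes 0 passed, a background of 0%, and 228 had an unadjusted p under 0.05. Of the 7 members 4 differed upward and 3 downward, with a median of 0.0033, and the median of all tested genes was also 0.0033. The 95% intervals of the 7 reached at most from -0.12, in Slc7a6, to 0.23, in Slc38a2.

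**Figure D1:**
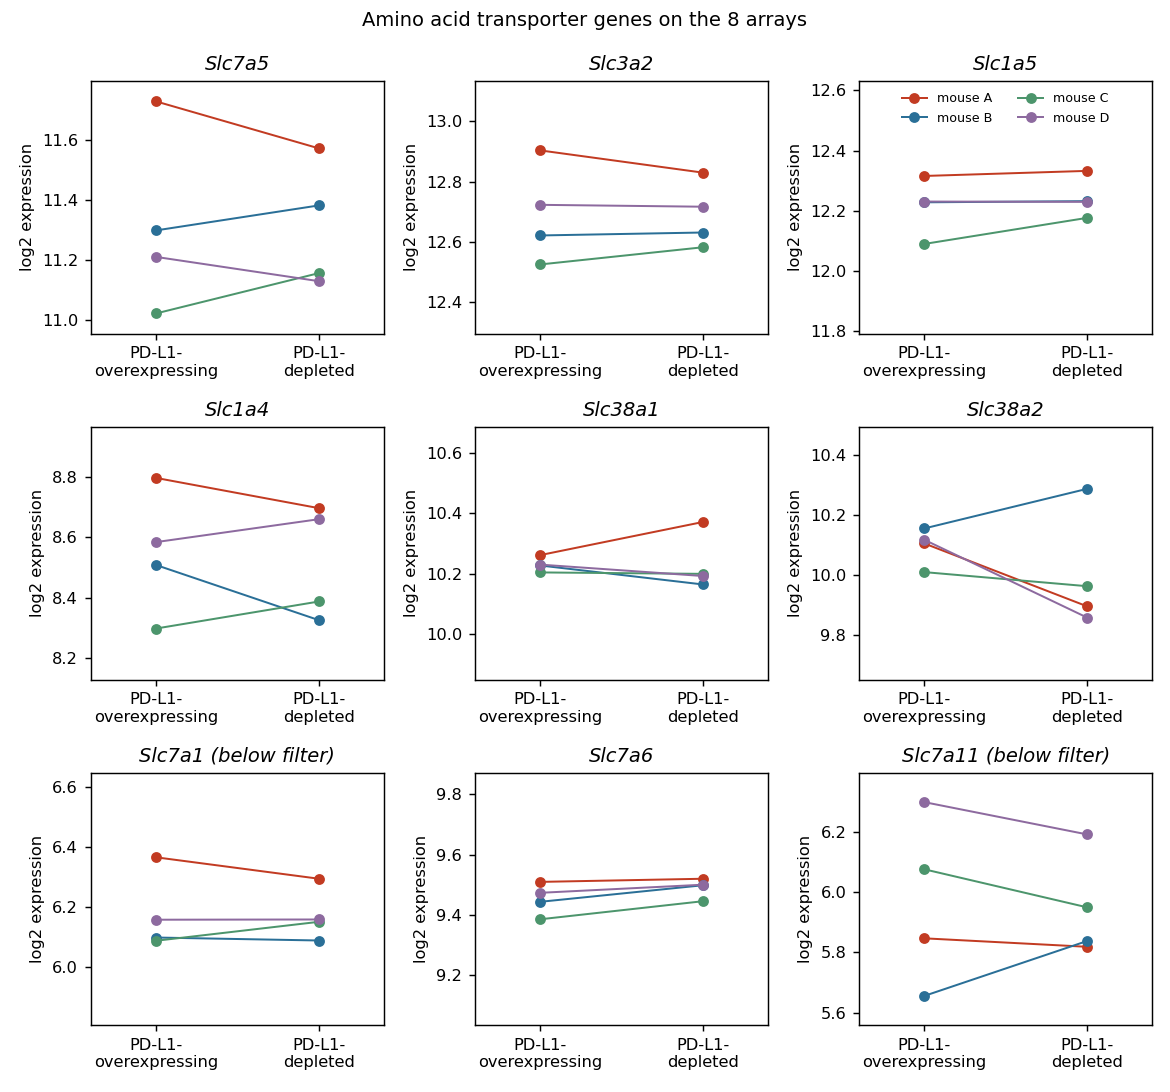
Deposited log2 expression of the 9 transporter genes, 1 panel per gene with the same span on each vertical axis, with PD-L1-overexpressing targets at the left and PD-L1-depleted targets at the right. Lines join the 2 arrays of a mouse. The line of mouse A lies above the others on both sides in every panel but those of Slc38a2 and Slc7a11. The lines slope both ways in every panel but that of Slc7a6.

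**Figure D2:**
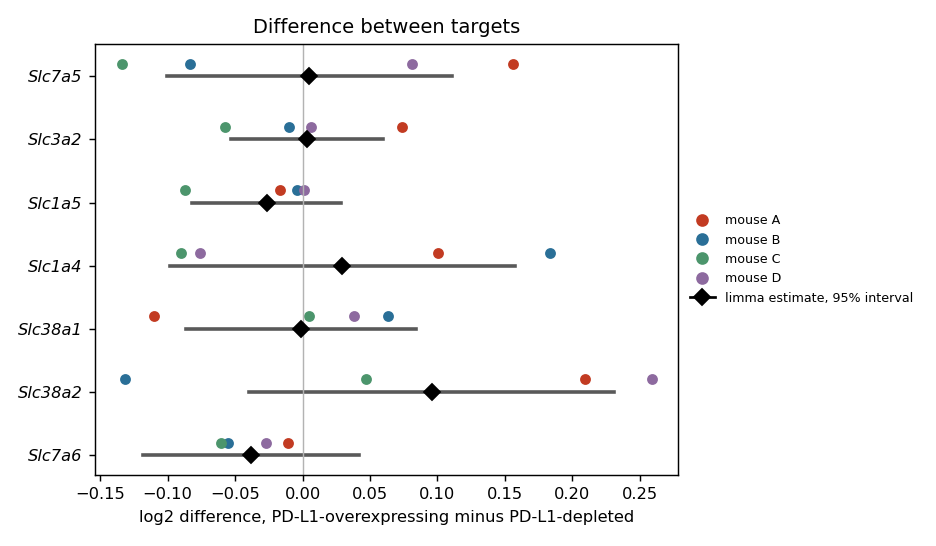
Log2 difference between targets (PD-L1-overexpressing minus PD-L1-depleted) for the 7 tested genes. Circles are single mice, diamonds the limma estimate and bars its 95% interval. Each interval includes 0, and Slc38a2 has the widest scatter between mice.

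Slc38a2, a glutamine and alanine importer, differed most between targets, and mouse B went against the other animals. It read 10.10, 10.15, 10.01 and 10.12 for mice A to D on PD-L1-overexpressing targets, against 9.90, 10.29, 9.96 and 9.86 with PD-L1-depleted targets. It was thus higher with PD-L1-overexpressing targets by 0.21 for mouse A, 0.047 for mouse C and 0.26 for mouse D, and differed by -0.13 for mouse B. The mean difference was 0.096 (SE 0.060, 95% interval -0.040 to 0.23).

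Without mouse B, Slc38a2 was higher with PD-L1-overexpressing targets by 0.17 (limma adjusted p = 0.0442), and it was the only 1 of the 7 members to pass there. Over all genes 1.90% were called higher in that fit. Mouse B alone had a negative difference, so leaving it out raised the estimate, and this p-value is no independent support. Without mouse A, C or D the difference was 0.058, 0.11 and 0.041, and Slc38a2 did not pass. The mean of the 12 tested tumour and mesothelial markers moved with it, with differences of 0.71 for mouse A, 0.56 for mouse C and 0.65 for mouse D, and of -0.97 for mouse B. That mean ran from 7.83 to 8.92 with PD-L1-overexpressing and from 7.80 to 8.80 with PD-L1-depleted targets. Without mouse B, 8 of the 12 markers passed, and these 8 were higher with PD-L1-overexpressing targets. Among those that did not pass, Epcam and Cav1 were lower, at -0.071 and -0.19, and Krt19 was higher by 0.14. Upk3b, a mesothelial surface gene, was higher by 1.79 (limma adjusted p = 1.1e-14), Fn1, which encodes fibronectin, by 0.82 and the keratin gene Krt18 by 0.49, while Krt8 differed by 0.10 and did not pass. Over all 4 mice Upk3b, Fn1, Krt18 and Krt8 differed by 0.77, 0.35, 0.12 and -0.041. Mouse B was opposite in sign to the other animals for Upk3b, Fn1 and Krt18. For Krt8 the difference was -0.48 in mouse B and also negative, at -0.018, in mouse C. Over all 4 mice the difference of Slc38a2 was 0.096 without a covariate (limma adjusted p = 0.9995). With the marker mean as a covariate it was 0.050 (limma adjusted p = 0.922). It passed in neither of these fits, and a cause was not tested.

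**Figure D3:**
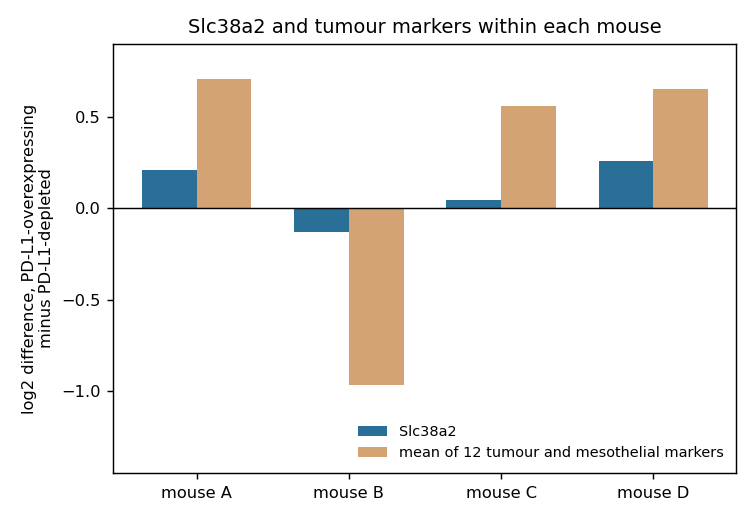
Log2 difference between targets (PD-L1-overexpressing minus PD-L1-depleted) within each mouse, for Slc38a2 and for the mean of the 12 tested tumour and mesothelial markers. Bars start at 0. Both are above 0 in mice A, C and D and below 0 in mouse B.

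Between animals, the LAT1 and CD98 chains and both Slc1 exchangers differed, with mouse A highest and mouse C lowest in the mean of its arrays. The error here is the variation between the 2 co-cultures of one animal, so the p-values do not speak for mice in general, and what set the animals apart is not in the labels. By the moderated F test of limma, 4 of the 7 tested members (57.1%) passed, against a background of 29.3% of all genes. Such a share was not particular to the members. In the other gene lists below it ran from 24.0% (mTORC1 and its amino acid sensing) to 62.5% (glutamine and glutamate use). It was 55.6% for other amino acid transporters and 72.7% for the CD8 T cell markers. The tests of single mice below compare each with the mean of the other 3, so they share arrays and are not independent of one another.

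Slc7a5 had the widest range among the 7, 1.47-fold between mice A and C (F test, limma adjusted p = 0.00118). Its arrays stood at 11.73 and 11.57 in mouse A, against 11.30 and 11.38 in B, 11.21 and 11.13 in D and 11.02 and 11.16 in C. Mouse A stood above all other arrays, and those of D and C overlapped. Mouse A was higher than the mean of the other mice by 0.45 (SE 0.054, limma adjusted p = 0.000342), and mouse C was lower, at -0.30 (SE 0.054, adjusted p = 0.0118).

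Slc3a2 put the animals in the order A, D, B and C with no overlap between neighbours. The 2 arrays of mouse D and of mouse B agreed within 0.010 on the log2 scale. Slc3a2 was higher in mouse A by 0.23 (SE 0.029, limma adjusted p = 0.000404) and lower in mouse C, at -0.18 (SE 0.029, adjusted p = 0.00594), with 1.24-fold between the highest and the lowest animal.

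Slc1a5 spanned only 1.14-fold between mice. It was higher in mouse A by 0.13 (SE 0.028, limma adjusted p = 0.00926) and lower in C, at -0.13 (SE 0.028, adjusted p = 0.0266), and mice B and D read 12.23 on all 4 of their arrays. With eBayes without a trend Slc1a5 did not pass, in mouse A (adjusted p = 0.0534) or by the F test (adjusted p = 0.0941), and the F test was also lost without mouse C (adjusted p = 0.0886). Slc1a4 spanned 1.32-fold in the order A, D, B and C, and the arrays of B and C overlapped. It was higher in mouse A by 0.29 (SE 0.065, limma adjusted p = 0.0100) and lower in C, at -0.25 (SE 0.065, adjusted p = 0.0461). The call of Slc1a4 in mouse C was lost under 6 of 10 alternatives, namely quantile normalisation, no filter, all probe sets, eBayes without a trend, and without mouse A or mouse D (adjusted p = 0.0591 to 0.242).

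The remaining tested members did not pass between mice (F test, limma adjusted p = 0.237 for Slc38a1, 0.125 for Slc38a2 and 0.399 for Slc7a6). Slc38a1 and Slc7a6 spanned 1.09-fold and 1.07-fold, and Slc38a2, highest in mouse B on both targets, 1.18-fold. Slc38a1 was higher in mouse A by 0.11 (limma adjusted p = 0.0784), and passed there without mouse B (adjusted p = 0.0399). Even so, both arrays of mouse A lay above the other 6 in 6 of the 7 tested members, all but Slc38a2. Over all genes this held for 22.3%.

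In all, 4 of 7 members were called higher and 0 lower in mouse A, where 18.1% of all genes were called higher and 12.7% lower. In mouse C 4 were called lower and 0 higher, against 5.35% and 3.09% of all genes. Of the genes called in mouse C 36.6% were higher, and 54.2% under quantile normalisation. In mouse B and in mouse D 0 were called, against 9.26% and 8.65% in either direction. The median over the 7 members was 0.13 in mouse A and -0.13 in C, and over all genes 0.022 and -0.018. The calls in mouse C depended on mouse A, on the variance model and on the normalisation and filter. With eBayes without a trend 0 of the 7 were lower in C, and under quantile normalisation, as with all probe sets, Slc7a5 and Slc3a2 passed but Slc1a5 and Slc1a4 did not. Without mouse A 0 were lower too, with Slc7a5 at -0.17 and Slc3a2 at -0.12 (limma adjusted p = 0.106 and 0.0510), and only Slc3a2 passed the F test (adjusted p = 0.0380).

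Marker levels beside these differences were as follows. The mean of the CD8 T cell markers of mouse A differed from that of the others by -0.050. Of its 11 markers 2 were called higher and 5 lower, against 18.1% and 12.7% of all genes. The mean of the tumour and mesothelial markers was lowest in mouse A, at 8.15, against 8.32 for mouse B, 8.64 for mouse C and 8.48 for mouse D. Ighm, the only B cell marker above the filter, averaged 10.23 in mouse A against 10.73 to 11.06 in the others. Their part in the differences between mice was not tested.

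**Figure D4:**
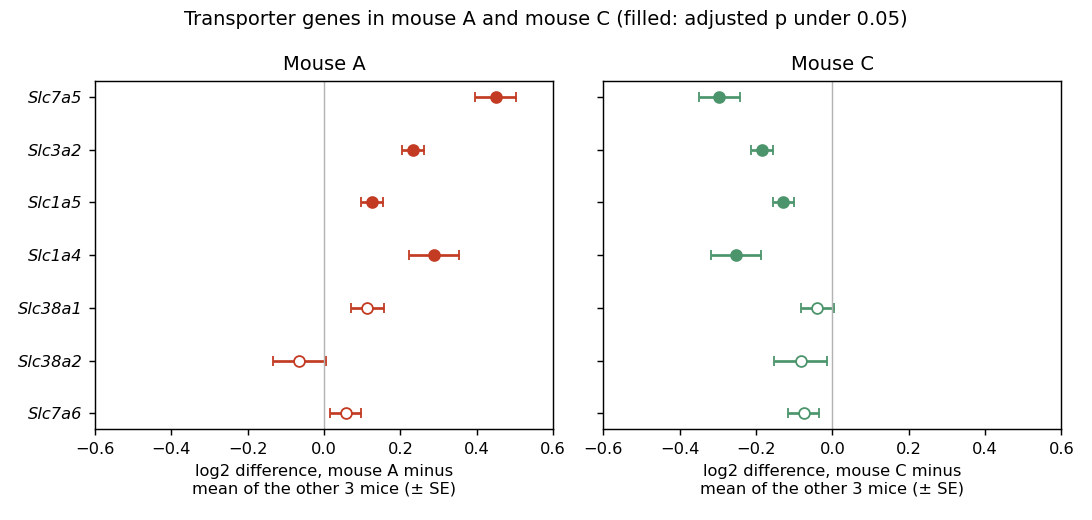
Log2 difference of mouse A (left) and mouse C (right) from the mean of the other 3 mice for the 7 tested genes, with bars of 1 SE. Filled circles passed at a limma adjusted p under 0.05. Slc7a5, Slc3a2, Slc1a5 and Slc1a4 lie above 0 in mouse A and below 0 in mouse C.

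Where a gene had several probe sets, they agreed in part. For Slc1a4, all 3 probe sets put mouse A highest and mouse C lowest. In the fit over all 22626 probe sets without a filter, 2 of the 3 passed the F test (limma adjusted p = 0.0200 and 0.0300) and the last did not (0.364), against 12.9% of all probe sets. In the same fit the first 2 were called higher in mouse A, by 0.33 and 0.29 (adjusted p = 0.00572 and 0.0206), against 8.32% of all probe sets. The last differed by 0.17 (adjusted p = 0.190). The 2 probe sets of Slc7a6 gave different orders, A, D, B and C for the brighter and D, C, A and B for the dimmer, and neither passed.

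The arginine importer Slc7a1 read 6.37, 6.10, 6.09 and 6.16 for mice A to D on PD-L1-overexpressing targets, against 6.29, 6.09, 6.15 and 6.16 with PD-L1-depleted targets. These values lie below the filter, where a probe set may read background, and were tested only in the fit over all probe sets. Mouse A was again highest, by 0.21 over the mean of the others, and did not pass (limma adjusted p = 0.0970). Between targets Slc7a1 differed by 0.0044 (SE 0.063).

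The cystine importer Slc7a11 did not follow mouse A. It read 5.85, 5.66, 6.08 and 6.30 for mice A to D on PD-L1-overexpressing targets, against 5.82, 5.84, 5.95 and 6.19 with PD-L1-depleted targets. Mouse D was highest on both targets, by 0.38 over the mean of the others (limma adjusted p = 0.0461 in the fit over all probe sets), where 1.83% of probe sets were called higher in D. The call in mouse D was lost under quantile normalisation, median centring and eBayes without a trend (limma adjusted p = 0.0744, 0.0598 and 0.0876), and without mouse A (adjusted p = 0.233). Mouse A differed by -0.17 (adjusted p = 0.243), and without mouse B by -0.30 (adjusted p = 0.0136). Between targets Slc7a11 differed by 0.020 (SE 0.073). Mouse B again went against the others, at -0.18, with 0.028, 0.13 and 0.11 in mice A, C and D.

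The promoters of Slc3a2 and Slc1a4, called in the same animals and directions, are shown because transporter genes are textbook targets of MYC and of ATF4, the factor of the amino acid stress response. Sequences are from RefSeq (GRCm38.p6) and run from 250 bases before to 50 after the annotated start. Of the 9 genes 6 had an entry, and Slc7a5, Slc1a5 and Slc38a1 are among those named only. The search covered both strands for CACGTG (the E-box bound by MYC), TGATGNAA (the C/EBP-ATF element bound by ATF4) and TGACNNNGC (the antioxidant response element). Capitals mark a match, and no matches overlapped in these promoters. The Slc3a2 promoter lies at chr19:8713848-8714147 on the minus strand and that of Slc1a4 at chr11:20332664-20332963 on the minus strand.
Slc3a2: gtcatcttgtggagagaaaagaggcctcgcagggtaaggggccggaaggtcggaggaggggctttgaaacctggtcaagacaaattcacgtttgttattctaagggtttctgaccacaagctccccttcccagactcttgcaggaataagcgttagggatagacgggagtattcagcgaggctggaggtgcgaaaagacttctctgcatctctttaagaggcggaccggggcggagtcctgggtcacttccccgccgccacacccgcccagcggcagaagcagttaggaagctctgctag
Slc1a4: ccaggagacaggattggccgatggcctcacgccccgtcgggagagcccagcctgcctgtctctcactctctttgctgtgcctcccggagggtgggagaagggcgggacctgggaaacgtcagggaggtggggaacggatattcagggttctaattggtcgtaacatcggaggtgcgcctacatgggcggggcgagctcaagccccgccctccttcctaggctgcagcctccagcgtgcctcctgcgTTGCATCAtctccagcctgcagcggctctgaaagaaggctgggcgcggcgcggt

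The Slc1a4 window held 1 match to TGATGNAA, on the opposite strand and across the annotated start, while the Slc3a2 window held none of these motifs. Among the other members, Slc7a11 held 2 matches to TGATGNAA, and Slc38a2 and Slc7a6 held TGACNNNGC, as did 1 of the 2 Slc7a1 windows. Of 32851 promoters in the table, 7.15% held CACGTG, 3.97% TGATGNAA and 12.4% TGACNNNGC. A match is a description of letters and not a bound site.

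Regulators of these genes were called in both directions in mouse A. Of 25 tested regulators 4 were called higher and 6 lower there, against 18.1% and 12.7% of all genes, and the median was -0.017. Myc differed in mouse A by 0.030 and was higher in mouse B by 0.21 (limma adjusted p = 0.0190), and Atf4 was lower in mouse A, at -0.071 (adjusted p = 0.0415). Of the other members of the stress response, Nupr1, a stress-induced transcriptional regulator, was higher in mouse A by 0.73, Atf5 was higher by 0.21 and Trib3, which dampens ATF4, was lower, at -0.27. Hif1a, the oxygen-sensing factor, was lower in mouse C, at -0.24, and the oxidative stress factor Nfe2l2 did not pass between mice (F test, adjusted p = 0.403). In these named genes the difference between targets lay between -0.055 and 0.12, and none passed. Nfe2l2 did pass without mouse B (limma adjusted p = 0.00357), in which it differed by -0.37.

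Other amino acid transporters followed mouse A in part. Of 38 on the list, 26 had a probe set and 9 passed the filter. In mouse A 3 of the 9 were called higher and 0 lower, against 18.1% and 12.7% of all genes. In mouse C 3 were called lower and 0 higher, against 5.35% and 3.09%. Slc7a3, a cationic transporter related to Slc7a1, averaged 11.26 for mouse A, against 10.88 for mouse B, 10.54 for mouse C and 10.87 for mouse D, and was higher in A by 0.49 and lower in C, at -0.46 (limma adjusted p = 2.46e-05 and 0.000194). Slc15a3, a lysosomal peptide and histidine carrier, was higher in mouse A by 0.42 and the taurine transporter Slc6a6 by 0.20. Slc7a7, another light chain of CD98, was lower in mouse C, at -0.35, and higher in B by 0.30.

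Genes that use the imported amino acids were also called more often upward than downward in mouse A. So were all tested genes, at 18.1% higher and 12.7% lower. Of 16 tested genes of glutamine and glutamate use, 8 were called higher and 1 lower in mouse A, and the median was 0.16. They included the aminotransferase Got1, higher by 0.32, Glud1, glutamate dehydrogenase, higher by 0.22, and Ppat, the first enzyme of purine synthesis, higher by 0.38. Psat1, a serine synthesis enzyme that uses glutamate, was higher in mouse A by 0.19 and lower in B, at -0.20.

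Of 16 genes of glutathione and cysteine handling, 7 were called higher in mouse A and 0 lower, against 18.1% and 12.7% of all genes. Cth, which makes cysteine from cystathionine, averaged 11.50 in mouse A, against 10.81 to 11.08 in the others, and was higher by 0.58 (limma adjusted p = 3.45e-06). Gpx4, which reduces lipid peroxides, was higher by 0.23, Gclm, a subunit of the first enzyme of glutathione synthesis, by 0.30, and Slc25a39, the mitochondrial glutathione carrier, by 0.18. Slc7a11, which supplies cystine to the same pathway, differed in mouse A by -0.17 in the fit over all probe sets and did not pass.

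Of 13 genes of branched-chain amino acid breakdown, 5 were called higher in mouse A and 0 lower, against 18.1% and 12.7% of all genes. Bcat1, the cytosolic aminotransferase of leucine, isoleucine and valine, was higher by 0.41, Bckdha by 0.33, Mccc1 by 0.33 and Dld by 0.21. Of 13 genes of arginine and polyamine use, 5 were called higher and 1 lower in mouse A, beside the same shares of all genes. Odc1, the first enzyme of polyamine synthesis, was higher by 0.11, Srm, spermidine synthase, by 0.18, and Smox, spermine oxidase, by 0.22. Asl, argininosuccinate lyase, was lower, at -0.24.

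mTORC1 and its amino acid sensors were called at about the background. Of 25 tested genes 4 were called higher and 2 lower in mouse A, against 18.1% and 12.7% of all genes, and the median was 0.011. Eif4ebp2, a repressor of translation that mTORC1 phosphorylates, was higher in mouse A by 0.22. Lamtor4, a subunit of the lysosomal anchor of mTORC1, was lower, at -0.43, as was Seh1l, shared by the GATOR2 complex and the nuclear pore, at -0.25. Sec13, also in both the GATOR2 complex and the nuclear pore, was lower in mouse B, at -0.17.

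**Figure D5:**
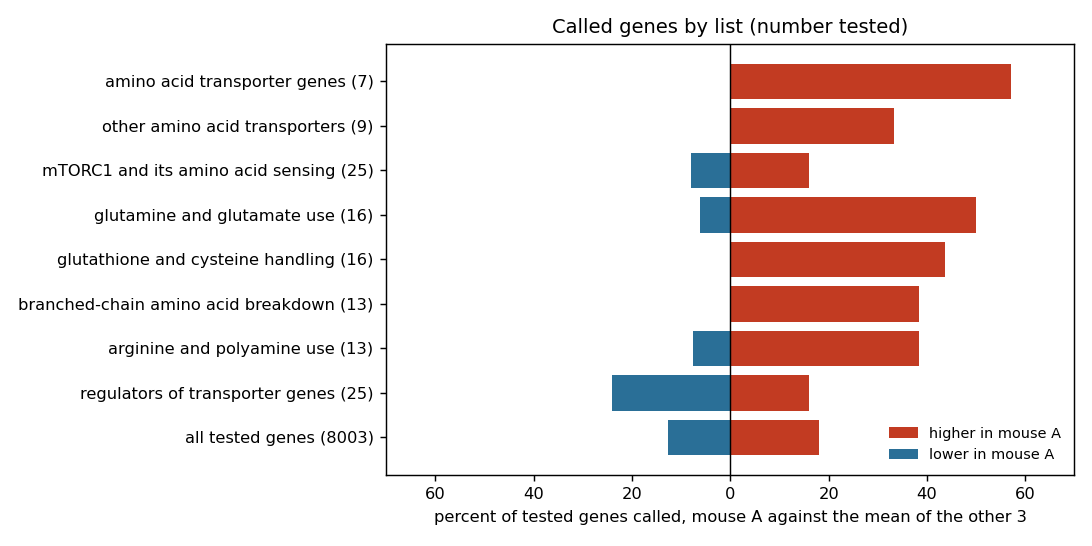
Percent of tested genes called higher (right of 0) or lower (left of 0) in mouse A than the mean of the other 3 mice, by gene list, with the number tested in brackets. All tested genes are the bottom bar, at 18.1% higher and 12.7% lower, and the 7 transporter genes the top bar, with 4 higher and 0 lower.

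Between targets, 0 genes of these 7 lists passed, and their medians lay between -0.00068 and 0.019. Without mouse B 4 of their genes passed, where 2.2% of all genes did in either direction. The stress-responsive factor Cebpb and Nfe2l2 were higher with PD-L1-overexpressing targets by 0.26 and 0.28. Slc7a4 and Gfpt2, an enzyme that uses glutamine to make hexosamines, were lower, at -0.23 and -0.25. Over all 4 mice Cebpb and Nfe2l2 differed by 0.098 and 0.12, and Slc7a4 and Gfpt2 by -0.15 and -0.18. Nfe2l2 differed by 0.39, 0.23 and 0.21 in mice A, C and D and by -0.37 in mouse B, the same signs as the tumour marker mean. Whether these are related was not tested. Cebpb, Slc7a4 and Gfpt2 are named because they passed without mouse B, after their values were seen. The lists overlap in function with one another, and members of a list share the same 8 arrays, so their counts are a description.

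The genes most like each member were sought by the root mean square difference over the 8 arrays, each gene taken as deviations from its own mean. For Slc7a5, whose own deviations had a root mean square of 0.22, they were Zfr and Snhg1, at 0.052 and 0.058. For Slc3a2 they were Pdk3 and Zmat3, for Slc1a4 Man1a2 and Trub2, and for Slc1a5 Nploc4 and Fam53c. For the members that did not pass between mice they were Drg2 and Ndufb5 (Slc38a1), Rnf149 and Zscan26 (Slc38a2), and Rnf115 and Akt1 (Slc7a6).

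Among the members themselves, the smallest difference was between Slc7a6 and Slc1a5, at 0.037. Their own deviations had root mean squares of only 0.042 and 0.071, so little variation in either gene also keeps that value small. Slc7a6 ranked 90 of 8002 genes in likeness to Slc1a5, and Slc1a5 ranked 147 in likeness to Slc7a6. Slc3a2 and Slc1a4 differed by 0.074, and Slc3a2 ranked 15 in likeness to Slc1a4 while Slc1a4 ranked 463 in likeness to Slc3a2. The heavy chain and its partner Slc7a5 differed by 0.14, more than the 0.12 of Slc3a2's own deviations. Slc3a2 ranked 476 in likeness to Slc7a5, and Slc7a5 ranked 4143 in likeness to Slc3a2. Behind mouse A, mouse B came next for Slc7a5 and mouse D for Slc3a2. Since 8 arrays come from 4 animals, these measures describe the pattern between animals.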

How the data were processed

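Expression was measured on 8 one-colour 3' arrays, 4 per target and 1 per mouse and target. The authors deposited 1 log2 value per probe set; scale was read from the values (3.60 to 15.24, array medians 7.55 to 7.60). How they were summarised and normalised is not given in the sources used here. The arrays at equal rank were never more than 0.167 apart, so a shift shared by most genes could be hidden. The number of arrays limits the precision. The table held 0 columns of other samples.

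Of 22690 probe sets 64 controls were left out; 20380 of the rest had 1 symbol, 691 several and 1555 none. The platform annotation named 12393 genes; 0 symbols needed updating through RefSeq. The probe set with the highest mean stood for its gene, and genes under the 40th percentile of all means (6.87) were not tested. Fits across all genes used limma 3.58.1 in R 4.3.3 (lmFit, eBayes with trend). Tests were two-sided, with p-values adjusted by Benjamini-Hochberg and called under 0.05. The steps were run on simulated data that held noise and set changes, but not the differences between mice of the real arrays. The mouse was a fixed block: the titles give each mouse's letter in both groups. Across genes, the 2 arrays of a mouse deviated together from the group means, with correlations of 0.82 for mouse A, 0.16 for B, 0.61 for C and 0.64 for D.

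The members and gene lists were chosen with earlier results of these data known. Named beside the members were the 4 genes of each list with the smallest p between mice, fixed regulators and tumour markers, and the 2 nearest patterns.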

Additional observations from a re-analysis of the deposited data

Results flagged for a closer look

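In each group of 4 arrays, for the 12 probe sets of the members and the means of 5 marker lists, the distance of the outermost array from the next was taken as a share of the whole range. Of 34 such groups 2 had an array standing apart, and about 1.7 would by chance (1 group in 20). Slc38a1 was highest in mouse A with PD-L1-depleted targets, with a share of 0.83. There it read 10.37, against 10.16 to 10.20 in the other mice. The mean of the 2 tested erythroid and platelet markers was highest in mouse C with PD-L1-overexpressing targets, with a share of 0.898. There it read 7.51, against 7.37 to 7.39 in the other mice.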

How the results depend on the processing

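With no replicate block 0 of 7 members and 0 genes passed between targets, as with the mouse as a random block; with the tumour marker mean as covariate 0 members and 3 genes passed. Leaving out each mouse gave 0 to 1 members and 0 to 176 genes between targets, the upper values without mouse B. Between mice it gave 1 to 4 members and 576 (without A) to 3555 (without B) genes, and 935 (without D) to 2087 (without B) genes higher in mouse A, where 4 to 5 members passed. Lower in mouse C were 0 (without A) to 4 members and 243 (without A) to 1050 (without B) genes; quantile normalisation gave 2 members and 252 genes, all probe sets 2 members, and eBayes without a trend 0 members and 220 genes. Members higher in mouse A stayed at 3 or more under all alternatives run. The causes were not tested, except that leaving out a mouse leaves fewer arrays.

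Differences between targets that changed sign passed on neither side. Slc7a5 stood at -0.0027 under quantile normalisation and -0.015 with the marker covariate, and at -0.046 to 0.051 on leaving out a mouse. Slc3a2 stood at -0.00040 with the covariate and at -0.020 to 0.023 without a mouse, Slc1a4 at -0.022 to 0.069, Slc7a1 at -0.018 to 0.027. Slc38a1 stood at 0.0070 under median centring, 0.012 with the covariate and -0.023 to 0.035 without a mouse. Slc7a11 stood at -0.019 with the covariate and -0.016 to 0.087 without a mouse. Without a mouse, Slc38a2 in mouse A ran from -0.10 to 0.013 and Slc7a11 in mouse C from -0.026 to 0.22. Signals near background limit Slc7a1 and Slc7a11.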
